A study of Mus musculus with 4 samples.

Results

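Narrow YY1 peaks outside 6 windows of densely packed peaks were described here. They are stretches of the mouse genome, each under 150 bases, that were called as peaks of RNA pulled down with YY1 from crosslinked embryonic stem cells. Whether the RNA of each peak was bound by YY1 was not tested here. The members were chosen by width and position: a peak on chromosomes 1 to 19 with an end minus start below 150 bases, lying in none of the 6 windows. This gave 1714 peaks (859 plus-strand, 855 minus-strand) out of 12053 in the deposited lists. The windows run from 21200000 to 21450000 and from 23400000 to 23750000 on chromosome 13, from 96100000 to 96320000 on chromosome 3, from 68800000 to 68960000 on chromosome 11, from 172930000 to 173060000 on chromosome 1 and from 126050000 to 126160000 on chromosome 8. Their 200 peaks, 117 of them narrow, were left out, and the other 9831 peaks outside the windows, all at least 150 bases wide, served for comparison and are called wider peaks.

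The series compared RNA bound by YY1 and by OCT4 with RNA from control cells, with 1 library in each of 4 groups, and the purpose stated in its title concerns RNA that traps transcription factors at regulatory elements. The library used here came from stem cells carrying BirA, a bacterial biotin ligase, together with BioYY1, a YY1 that BirA biotinylates. The control for it carried BirA alone, and the OCT4 library and its own BirA control completed the series; the last 3 were not analysed here. The YY1 cells were grown on irradiated feeder fibroblasts, so that their RNA could be in the sample, and feeder and stem cell markers could not be checked because the peaks were not matched to genes. RNA was joined to protein with 254 nm light, nuclei were isolated, and the biotin-tagged protein was pulled down on streptavidin. With 1 library there is no replicate error and no p-value is given. Each 95% interval covers counting error over peaks only and treats peaks as independent, although neighbours can come from 1 RNA. Read depth is unknown, since the lists hold 3 columns, chromosome, start and end, with no height or score.

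YY1 is a zinc finger transcription factor that binds DNA at promoters and enhancers and also binds RNA, including RNA transcribed from such elements. In CLIP, the width of a peak reflects the length of the RNA fragment that was recovered and how far reads spread around it. Short noncoding RNAs, such as the transfer RNAs made by RNA polymerase III, give short peaks, and their genes often lie in arrays on both strands; a weakly covered spot in a long transcript can give a short peak as well. The 6 windows have been named for RNA polymerase III arrays. Which RNA gave a narrow peak outside them was not examined, because no gene annotation or sequence of mm9, the build of these lists, was used. All positions are 1-based mm9 coordinates.

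The narrow peaks had a median width of 115 bases (95% interval 113 to 117), with quartiles of 99 and 130 bases. Plus-strand members had a median of 114 bases, and minus-strand members 115. Wider peaks had a median of 397 bases. Narrow peaks made up 14.8% of all peaks outside the windows (14.2 to 15.5) and 3.62% of their bases, or 197 kb. Width was used to choose them, so these values only describe the set.

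The limit of 150 bases fell near a dip in the widths. In bins of 10 bases, 323 peaks measured 90 to 99 bases, 241 measured 110 to 119 bases and 292 measured 120 to 129 bases. The count fell to 194 peaks just inside the limit, from 140 to 149 bases, and 152 just outside it, from 150 to 159 bases. It rose again to 228 peaks at 180 to 189 bases and to 253 at 240 to 249 bases. At the limit itself, 23 peaks measured 149 bases, among them those on chromosome 1 from 84797154 to 84797302, on chromosome 10 from 92624542 to 92624690 and on chromosome 13 from 17888921 to 17889069. Another 17 measured 150 bases, among them those on chromosome 1 from 36412193 to 36412342 and from 60248959 to 60249108.

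**Figure D1:**
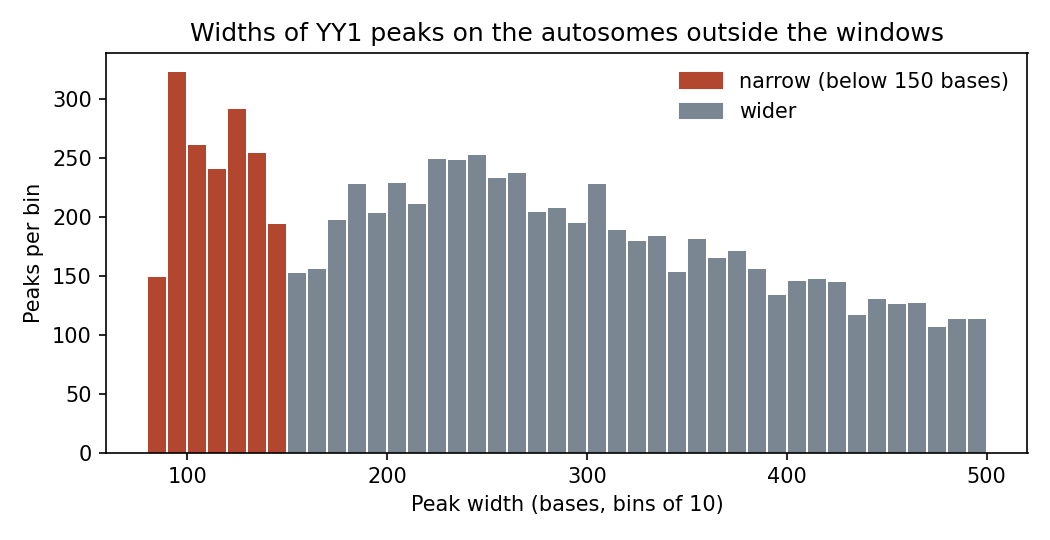
Number of peaks (y axis) by width in bins of 10 bases (x axis) for peaks on chromosomes 1 to 19 outside the windows, shown up to 500 bases, with narrow peaks in red and wider peaks in grey. The highest narrow bin holds 323 peaks, and the bin just above the limit holds 152.

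The shortest width in the lists was 83 bases, and 14 narrow peaks had it. On the plus strand they began at 95629936 on chromosome 1, 19928285 on chromosome 10, 63542745 on chromosome 12, 65966235 on chromosome 2, 117422414 on chromosome 4 and 94179333 on chromosome 9. Chromosome 6 had 3 of them, also on the plus strand, which began at 30093272, 51634670 and 90769233. On the minus strand they began at 50485383 on chromosome 12, 61437869 on chromosome 13, 59436945 on chromosome 14, 42043942 on chromosome 18 and 52482483 on chromosome 2. These 14 were spread over 10 chromosomes, and none of the 14 lay within 10 kb of another narrow peak of its strand.

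Narrow peaks were split evenly between the strands. The plus-strand share was 50.1% (47.7 to 52.5), against 51.1% of wider peaks (50.2 to 52.1). The difference was -1.03 percentage points, with an interval from -3.59 to 1.53 that holds 0. By chromosome, the interval excluded 50% only on chromosome 15, where 15 of 45 narrow peaks were on the plus strand (33.3%, 20.0 to 49.0). On chromosome 13, 45 were plus-strand and 65 minus-strand (40.9%, 31.6 to 50.7).

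The narrow share differed among chromosomes and was highest on chromosome 13, from which 2 of the 6 windows had been cut. There 110 of 448 peaks were narrow, or 24.6% (20.6 to 28.8). Chromosome 16 followed with 73 of 357 (20.4%, 16.4 to 25.0), then chromosome 12 with 104 of 527 (19.7%, 16.4 to 23.4), chromosome 3 with 95 of 500 (19.0%, 15.7 to 22.7) and chromosome 6 with 124 of 674 (18.4%, 15.5 to 21.5). On these 5 chromosomes the whole interval lay above the pooled share of 14.8%. It lay below on chromosome 15, with 45 of 480 (9.38%, 6.92 to 12.3), and chromosome 11, with 134 of 1167 (11.5%, 9.71 to 13.5). The intervals of chromosomes 13, 16, 12, 3 and 6 overlapped each other, so their order is not resolved.

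**Figure D2:**
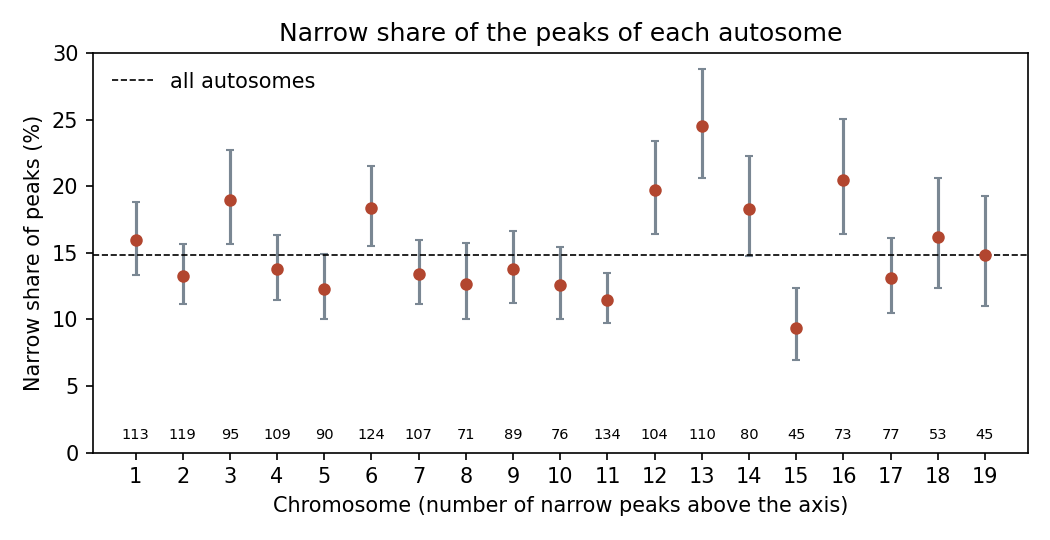
Narrow share of peaks in percent (y axis) on each autosome (x axis), with exact 95% intervals as bars, the number of narrow peaks above the axis and the pooled share of 14.8% as a dashed line. Chromosome 13 is highest at 24.6% and chromosome 15 lowest at 9.38%.

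Chromosome 11, which is gene-rich, had the most narrow peaks of any autosome and yet a low narrow share. Its density, counted over the span that its peaks cover, was 1.13 narrow peaks per Mb, ahead of chromosome 13 at 0.942 and chromosome 12 at 0.881, and the lowest was 0.451 on chromosome 15. Narrow peaks were thus 2.50 times as dense on the highest chromosome as on the lowest. For wider peaks the range was from 2.62 per Mb on chromosome 3 to 8.70 on chromosome 11, a ratio of 3.32. Over the 19 chromosomes, narrow and wider density had a Spearman rho of 0.188 and a Pearson r of 0.519. The narrow share had a rho of -0.718 and an r of -0.616 with wider density. These values describe 1 library, and the share contains the wider count, so that part of the second relation follows from its construction.

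Part of the excess on chromosome 13 lay around its windows. Between 21 and 24 Mb, outside them, 36 of 54 peaks were narrow (66.7%, 52.5 to 78.9), against 74 of 394 on the rest of the chromosome (18.8%, 15.0 to 23.0), where the interval still lay above the pooled share. Without this stretch the share of chromosome 13 was no longer above those of chromosomes 16, 12 and 3, at 20.4%, 19.7% and 19.0%. No stretch was removed from those chromosomes and the intervals overlap, so the order is not resolved. The Mb from 22 to 23 alone had 20 narrow peaks among 22. Ranked by their number of narrow peaks, the next Mb stretches were 47 to 48 Mb of chromosome 6 with 12 of 22 peaks narrow, 21 to 22 Mb of chromosome 13 with 10 of 16 and 23 to 24 Mb of chromosome 17 with 10 of 20. After them came 128 to 129 Mb of chromosome 6 with 9 of 21, 146 to 147 Mb of chromosome 4 with 8 of 17 and 51 to 52 Mb of chromosome 14 with 7 of 10. Most stretches held few: of 1036 Mb stretches with a narrow peak, 629 had 1 and 21 had at least 5.

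Few peaks lay close to the windows, but narrow peaks did so more often than wider ones. The shares within 1 Mb were 2.80% of narrow peaks (2.07 to 3.70) and 1.32% of wider peaks (1.11 to 1.57). Within 1 Mb of a window, 48 of 178 peaks were narrow (27.0%, 20.6 to 34.1), against 14.7% elsewhere (14.0 to 15.3), a difference of 12.3 percentage points (6.29 to 19.3). Of the 48, 31 lay within 1 Mb of the chromosome 13 window from 21200000 to 21450000, and 6 within 1 Mb of the other chromosome 13 window. The windows of chromosomes 3, 11, 1 and 8 had 4, 1, 5 and 1. The stretch from 21 to 24 Mb of chromosome 13, with 36 narrow of 54 peaks, lies wholly within 1 Mb of its windows. The pooled share near windows thus mostly reflects chromosome 13 and does not describe the surroundings of each window. The nearest narrow peak was 381 bases from the chromosome 13 window that starts at 23400000, on the plus strand from 23399492 to 23399619. The chromosome 3 window had its nearest at a distance of 47302 bases (96052574 to 96052698), and the other window of chromosome 13 at 134661 bases (21584661 to 21584775). The distances were 179988 bases for the chromosome 11 window (68619914 to 68620012), 195307 bases for that of chromosome 1 (173255307 to 173255423) and 483092 bases for that of chromosome 8 (125566793 to 125566908). The edge at 23400000 thus lay right beside narrow peaks, while the other windows had margins of at least 47302 bases.

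Narrow peaks were mostly single, but some formed small clusters along 1 strand. Narrow peaks of the same strand were joined across gaps of up to 10 kb, and wider peaks were not considered. Of the 1714, 1575 were joined to no other and 139 fell into 57 clusters, a clustered share of 8.11% (6.86 to 9.50). A same-strand peak of any width lay within 10 kb of 21.2% of narrow peaks (19.3 to 23.2) and of 37.3% of wider peaks (36.3 to 38.2). Of the 57 clusters, 41 were of 2 peaks, 11 of 3, 3 of 4, and 1 each of 5 and 7. The clusters of 2 lay on 16 chromosomes, with 21 plus-strand and 20 minus-strand clusters, and had a median gap of 1930 bases and quartiles of 671 and 5459. The 16 clusters of 3 or more held 57 peaks on 8 chromosomes. Chromosome 13 had 5 of these clusters with 22 peaks, chromosome 6 had 3 with 9 peaks, and chromosomes 17 and 19 had 2 each. On chromosome 13, 32 of 110 narrow peaks were clustered (29.1%, 20.8 to 38.5), and on chromosomes 10 and 18 none were, of 76 and 53.

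The largest cluster, on chromosome 13 from 22008982 to 22032846, had 7 minus-strand peaks. Their widths, in order of position, were 136, 112, 131, 129, 129, 129 and 113 bases, and the gaps between them ran from 467 to 7638 bases. No wider peak of its own strand lay within it, and the nearest was 136.5 kb away. A cluster of 4 plus-strand peaks overlapped its start, from 21998974 to 22011225, with widths of 135, 115, 134 and 99 bases and 1 wider peak among them. Joined across strands, the locus held 11 narrow peaks in 33.9 kb.

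A second locus was on chromosome 17. Its minus-strand cluster of 5 peaks, from 23672255 to 23687292, had widths of 126, 88, 121, 128 and 114 bases. A plus-strand cluster of 3 peaks, from 23670920 to 23684442, had widths of 124, 128 and 121 bases. Peaks of both strands were interleaved along 16.4 kb with no wider peak between them, and the nearest wider peak of the minus strand was 48.3 kb away.

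The remaining clusters of 4 were on chromosome 13. The plus-strand cluster from 21802443 to 21814267 had peaks of 123, 122, 134 and 115 bases and no narrow peak opposite. The minus-strand cluster from 22107607 to 22122022 had peaks of 132, 120, 107 and 102 bases, with 2 narrow peaks of the plus strand inside its span. Its nearest wider peak on the same strand was 235.1 kb away. On chromosome 19, a plus-strand cluster of 3 (12080524 to 12086875) lay over a minus-strand cluster of 3 (12084133 to 12086167), which made 6 narrow peaks in 6.35 kb.

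**Figure D3:**
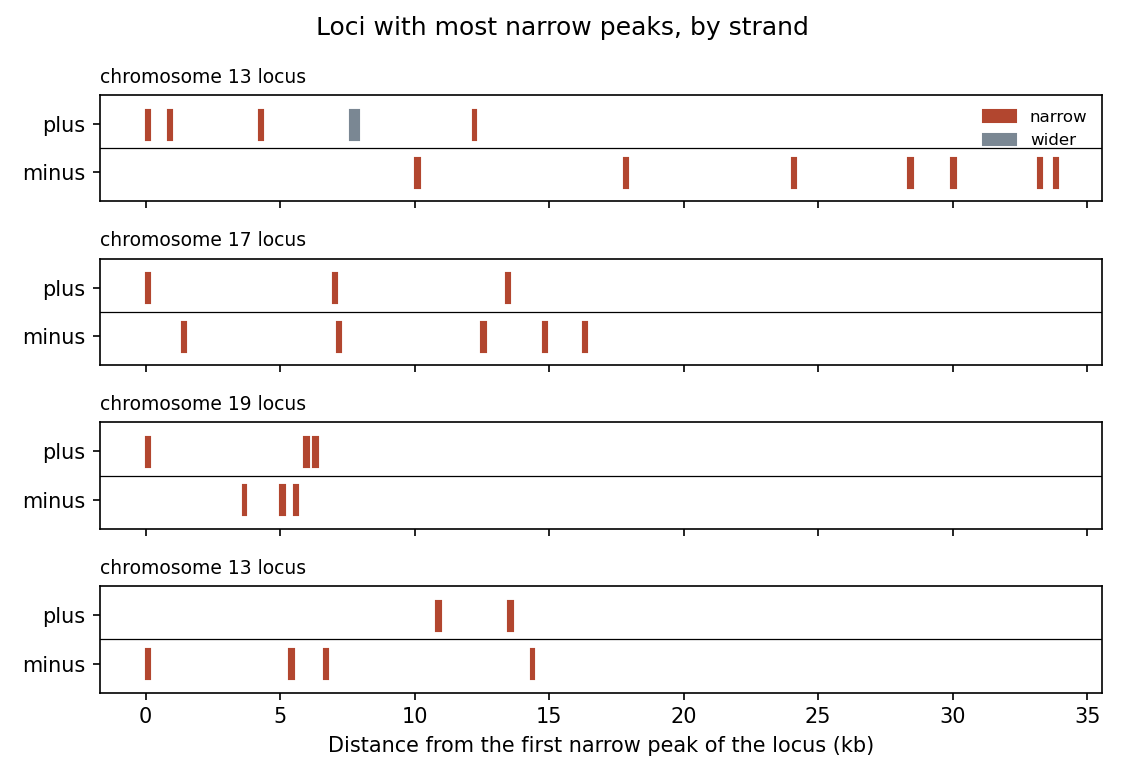
The 4 loci with most narrow peaks when both strands were joined across gaps of up to 10 kb, with distance in kb from the first narrow peak (x axis) and the plus and minus strand in separate lanes; red boxes are narrow peaks and the grey box is a wider peak. The loci hold 11, 8, 6 and 6 narrow peaks, and a wider peak lies only in the first.

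Most of these loci held both strands. Both were present in 7 of the 8 loci with 4 or more narrow peaks (87.5%, 47.3 to 99.7), which held 47 narrow peaks in all. Of 129 loci with 4 or more wider peaks, joined in the same way, 50 held both strands (38.8%, 30.3 to 47.7), and the intervals overlapped slightly. No wider peak lay within 7 of the 8 narrow loci, and no narrow peak lay within 122 of the 129 wider loci (94.6%, 89.1 to 97.8). These shares cannot be compared directly, because narrow peaks were only 14.8% of the peaks outside the windows. A wider locus without a narrow peak is therefore the more likely case from the counts alone. No wider peak lay within 14 of the 16 narrow clusters of 3 or more.

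Widths in the clusters of 3 or more lay closer together than those of single narrow peaks. The quartiles were 115 and 130 bases in these clusters, and 98 and 131 bases for single peaks. Width chose the members, so this is a description. Of the 57 peaks in clusters of 3 or more, 46 measured 110 to 139 bases (80.7%, 68.1 to 90.0), against 694 of 1575 single peaks (44.1%, 41.6 to 46.6) and 84 of the 117 narrow peaks in the left-out windows (71.8%, 62.7 to 79.7). Their median width was 124 bases (119 to 128), that in the windows 124 (121 to 126) and that of single peaks 114 (112 to 116). Only 4 of the 57 measured under 100 bases, against 453 single peaks (28.8%, 26.5 to 31.1). The range of 110 to 139 bases was chosen after the widths had been seen.

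The clusters of 3 not on chromosome 19 lay on chromosomes 1, 5, 6, 11, 12, 13 and 17. The minus-strand cluster of chromosome 1 (24619496 to 24621706) was 619 bases from a wider peak of its strand. The plus-strand cluster of chromosome 12 (110919010 to 110925119) had a wider peak inside it. Minus-strand clusters of chromosome 6 (47600725 to 47609427) and chromosome 5 (125884559 to 125889466) were 56.0 and 63.1 kb from the nearest wider peak of their strand. The plus-strand cluster of chromosome 13 that ends at the edge of a window, from 23390650 to 23399619, was 431.1 kb from one. Peaks inside the windows were not counted, and the window beside this cluster held 46 peaks, of which 35 were narrow. A wider peak of its strand may thus lie closer.

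Along a strand, the nearest neighbour of a narrow peak was a narrow peak more often than that of a wider peak was. For 388 of 1714 narrow peaks, or 22.6% (20.7 to 24.7), the nearest same-strand peak of any width was narrow, against 1077 of 9831 wider peaks, or 11.0% (10.3 to 11.6). The difference was 11.7 percentage points (9.66 to 13.8). It was positive on 17 of 19 chromosomes, and the exceptions were chromosome 3, at -1.07 points, and chromosome 7, where 11.2% of narrow and 11.3% of wider peaks had a narrow neighbour. It was largest on chromosome 13, at 22.8 points, where 40.0% of narrow and 17.2% of wider peaks had a narrow neighbour. With chromosome 13 left out, the shares were 21.4% and 10.7%.

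The contrast was strongest among close neighbours. Where the nearest same-strand peak was within 1 kb, it was narrow for 46 of 105 narrow peaks (43.8%, 34.1 to 53.8) and for 60 of 1256 wider peaks (4.78%, 3.66 to 6.11). Between 1 and 10 kb the shares were 29.8% (24.3 to 35.8) and 7.06% (6.07 to 8.16). Between 10 and 100 kb they were 14.4% (11.7 to 17.3) and 11.3% (10.4 to 12.3), with overlapping intervals. Beyond 100 kb they were 24.3% (21.2 to 27.7) and 19.8% (17.9 to 21.7). When the 139 clustered narrow peaks were removed, 16.4% of the single ones had a narrow neighbour (14.6 to 18.3), against 10.5% of wider peaks (9.94 to 11.2). By definition the single ones had no narrow peak of their strand within 10 kb. This share depends on the distance to wider peaks as well. Over all narrow peaks, the median distance to a wider peak was larger than for wider peaks (83.1 against 19.9 kb). That to a narrow peak was similar (594.0 against 587.3 kb).

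Narrow peaks lay far from wider peaks of their own strand. The median gap to the nearest was 83.1 kb (71.4 to 95.3), with quartiles of 20.1 and 364.1 kb. A wider peak had its nearest wider neighbour at a median of 19.9 kb (19.0 to 20.9), so the median of narrow peaks was 4.18 times as large. It was the larger on all 19 chromosomes, by 1.94 times on chromosome 9 up to 6.85 times on chromosome 15. A gap under 10 kb was found for 14.9% of narrow peaks (13.3 to 16.7) and 35.5% of wider peaks (34.5 to 36.4). Of narrow peaks, 19.7% were over 500 kb from any wider peak of their strand (17.9 to 21.7), against 6.25% of wider peaks (5.78 to 6.74).

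On the opposite strand the contrast was smaller and lay at long distances. The nearest wider peak was at a median of 194.0 kb (173.3 to 214.4) from a narrow peak and 144.5 kb (139.4 to 149.8) from a wider peak, a ratio of 1.34. The narrow median was the larger on 17 of 19 chromosomes, with a ratio down to 0.726 on chromosome 17. A gap under 10 kb was found for 6.59% of narrow peaks and 6.65% of wider peaks, a difference of -0.0597 percentage points (-1.25 to 1.30). Over 500 kb away lay 28.7% of narrow peaks (26.6 to 30.9) and 19.1% of wider peaks (18.3 to 19.9). That difference was 9.61 percentage points (7.38 to 11.9). Distances to the nearest narrow peak hardly differed between the sets, with medians of 594.0 kb for narrow and 587.3 kb for wider peaks on the same strand (523.4 to 662.4 and 568.5 to 612.3).

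**Figure D4:**
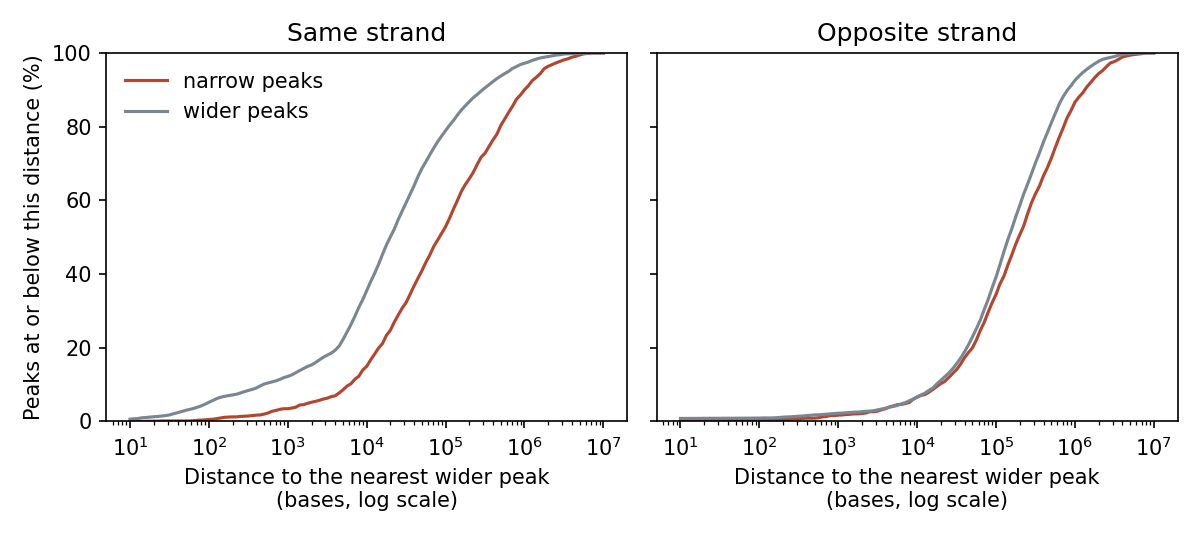
Percentage of narrow (red) and wider (grey) peaks whose nearest wider peak lies at or below the distance on the x axis (bases, log scale), on the same strand (left) and the opposite strand (right). On the same strand the narrow curve lies to the right, with medians of 83.1 and 19.9 kb. On the opposite strand the curves lie closer together, with medians of 194.0 and 144.5 kb.

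A narrow peak directly beside a wider one was rare. Only 9 narrow peaks (0.525%, 0.240 to 0.994) were under 100 bases from a wider peak of their strand, against 510 wider peaks (5.19%, 4.76 to 5.64). The 2 closest pairs were on chromosome 9, a plus-strand peak from 64023677 to 64023800, which began 17 bases after a wider peak of 440 bases, and a minus-strand peak from 97011362 to 97011486, at 25 bases from one of 560 bases. The next had gaps of 63 bases (chromosome 8, 108489357 to 108489501), 68 bases (chromosome 9, 54758093 to 54758195) and 69 bases (chromosome 2, 120495175 to 120495296). Wider peaks within 50 kb on both sides along the strand flanked 11.0% of narrow peaks (9.58 to 12.6) and 23.5% of wider peaks (22.7 to 24.3).

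Narrow peaks lay on either side of their wider neighbour at similar rates, with a small downstream excess within 100 kb. Of 906 with a wider same-strand peak within 100 kb, 485 lay downstream of it in the direction of the strand (53.5%, 50.2 to 56.8), against 50.5% of wider peaks (49.4 to 51.6). The interval of the narrow share excludes 50%. The difference of 3.02 percentage points from wider peaks had an interval from -0.417 to 6.44, which holds 0. Within 10 kb the share was 53.9% of 256 (47.6 to 60.1), and within 1 kb it was 44.1% of 59 (31.2 to 57.6).

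Isolation from every peak of either strand was more common as well. Of narrow peaks, 28.2% (26.1 to 30.4) had no other peak within 100 kb, against 10.7% of wider peaks (10.1 to 11.3), and 141 had none within 500 kb (8.23%, 6.97 to 9.63, against 1.60%, 1.36 to 1.86). The most isolated was a minus-strand peak of chromosome 14 (110996815 to 110996944), with 4443 kb to the nearest peak. Next came a plus-strand peak on chromosome 12 from 96858037 to 96858174, at 3127 kb. On chromosome 3, 2 narrow peaks were each other's nearest at 2827 kb, a plus-strand peak (75368652 to 75368768) and a minus-strand peak (72541803 to 72541893). A plus-strand peak on chromosome 15, from 21044134 to 21044255, was 2729 kb from its nearest.

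These measures changed with width both within the narrow peaks and across the limit of 150 bases. The median distance to a wider same-strand peak was 123.3 kb for widths of 83 to 99 bases (97.4 to 157.5), 69.7 kb for 100 to 119 bases (53.4 to 90.5) and 69.5 kb for 120 to 149 bases (58.5 to 90.5). Across the limit it fell to 44.5 kb for 150 to 199 bases (39.7 to 52.0), an interval that did not overlap that of 120 to 149 bases. It was 20.1 kb for 300 to 499 bases and 8.47 kb for peaks of 1000 bases and more. The share with a narrow nearest neighbour was 21.2% for 83 to 99 bases, 21.9% for 100 to 119 bases and 24.1% for 120 to 149 bases (21.0 to 27.3). It was 17.0% at 150 to 199 bases (14.6 to 19.5), again with no overlap across the limit, and 4.28% from 1000 bases. The share with an opposite-strand peak within 2 kb was 4.66% for 83 to 99 bases (2.94 to 6.97), 3.19% for 100 to 119 bases (1.83 to 5.12), 7.16% for 120 to 149 bases (5.41 to 9.26) and 1.92% for 150 to 199 bases (1.14 to 3.02).

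**Figure D5:**
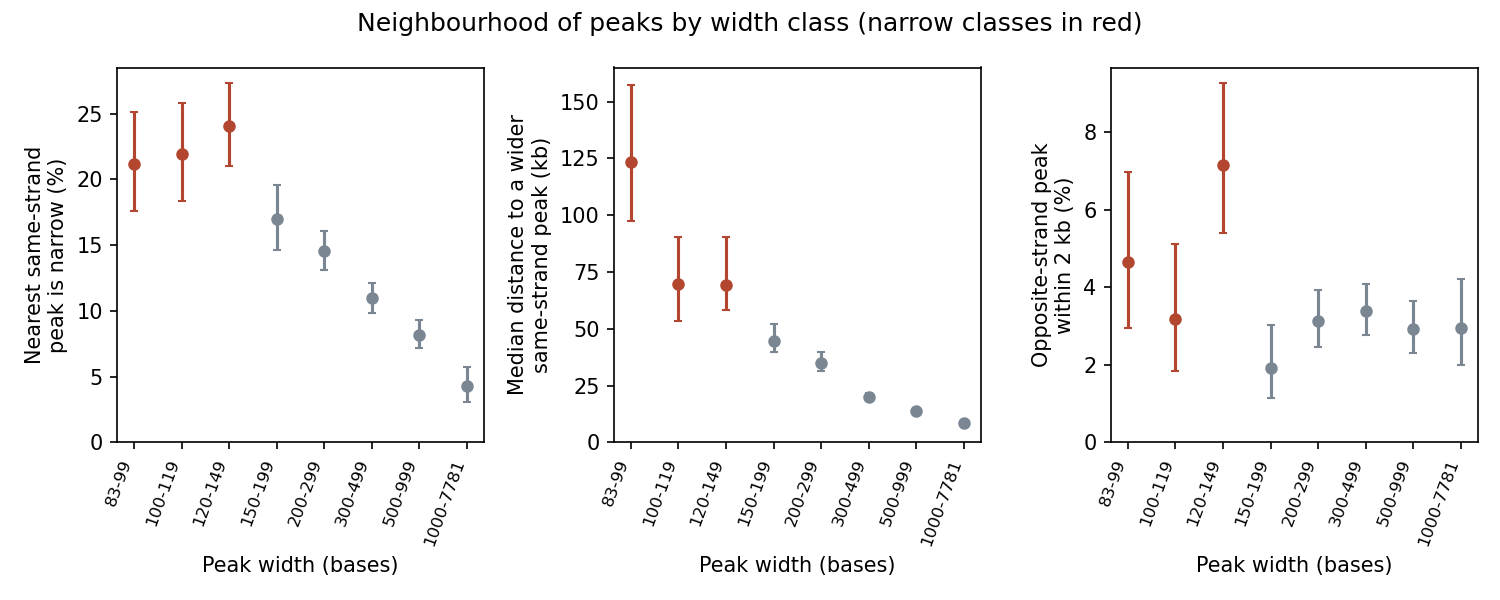
Share of peaks whose nearest same-strand peak is narrow (left, percent), median distance to a wider same-strand peak (middle, kb) and share with an opposite-strand peak within 2 kb (right, percent) by width class in bases (x axis), with 95% intervals as bars and the 3 narrow classes in red. The first falls from 24.1% at 120 to 149 bases to 4.28% from 1000 bases, the second from 123.3 to 8.47 kb, and the third is highest at 120 to 149 bases.

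An opposite-strand partner was more common for narrow than for wider peaks, though still rare. Within 2 kb, 91 narrow peaks had an opposite-strand peak of any width (5.31%, 4.30 to 6.48), against 3.02% of wider peaks (2.69 to 3.38), a difference of 2.29 percentage points (1.26 to 3.50). Of the narrow classes given above, only that of 120 to 149 bases had its whole interval above the wider share of 3.02%. The intervals of both shorter classes hold this share, which does not show that they had no excess. The partner was narrow for 56 of the 91. At least 1 base was shared with an opposite-strand peak by 21 narrow peaks (1.23%, 0.760 to 1.87) and by 0.875% of wider peaks (0.700 to 1.08), and here the interval of the difference, from -0.119 to 1.01 points, holds 0.

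The order of the strands in such pairs differed with width. Pairs were peaks that were each other's nearest on the opposite strand, at most 2 kb apart, and a pair was divergent if its minus-strand peak came first on the coordinate axis. Of 18 pairs of narrow peaks that did not overlap, 5 were divergent (27.8%, 9.69 to 53.5) and the other 13 convergent. Of 27 pairs of a narrow and a wider peak, 19 were divergent (70.4%, 49.8 to 86.2), and of 76 pairs of wider peaks, 70 were (92.1%, 83.6 to 97.0). The share of narrow pairs was 64.3 points below that of wider pairs (interval of the difference -80.2 to -39.8) and 42.6 points below that of mixed pairs (-63.2 to -12.8). The size of this contrast depended on the gap allowed: at up to 10 kb, an alternative chosen after seeing the data, 8 of 24 narrow pairs (33.3%, 15.6 to 55.3) and 149 of 219 wider pairs (68.0%, 61.4 to 74.2) were divergent, and the difference shrank to -34.7 points (-51.1 to -13.7). Pairs in 1 locus are not independent: 9 of the 18 held a peak of a same-strand narrow cluster, and of the other 9, 2 were divergent (22.2%, 2.81 to 60.0). With a limit of 120 bases only 1 such pair was left, so at least 1 peak of each other pair measured 120 bases or more. Divergent and convergent would be swapped if each list gave the strand complementary to the RNA, which would leave the difference between narrow and wider pairs as large.

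The 13 convergent narrow pairs lay on 9 chromosomes, with gaps from 42 to 1650 bases and a median of 198. The closest was on chromosome 17, with a plus-strand peak from 23677879 to 23678006 and a minus-strand peak from 23678049 to 23678136, inside the locus described above. On chromosome 7, a plus-strand peak (105963921 to 105964049) and a minus-strand peak (105964142 to 105964261) were 92 bases apart. On chromosome 2, those from 57034480 to 57034625 and from 57034760 to 57034882 were 134 bases apart. The 5 divergent pairs had gaps of 248 to 802 bases and included those on chromosome 19 (12086031 to 12086167 and 12086416 to 12086547) and chromosome 5 (125889334 to 125889466 and 125889840 to 125889963). These pairs were named after their values had been seen.

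Narrow peaks that overlapped each other on opposite strands were alike in form. There were 7 such pairs, each on a chromosome of its own, and they shared 56 to 70 bases, with a median of 59. Starts were offset by 25 to 43 bases, and in 6 of 7 pairs the minus-strand peak started first. Of the 14 peaks, 13 were under 110 bases wide, whereas 22 of the 26 peaks in convergent pairs were at least 110 bases wide. The pair with most bases in common was on chromosome 10, with a minus-strand peak from 121200251 to 121200346 and a plus-strand peak from 121200277 to 121200378. On chromosomes 7 and 14 the offset was 25 bases in both, with pairs that began at 97590454 and 97590479 and at 46432456 and 46432481. All but the chromosome 6 pair, at 128779041 on the minus strand and 128779080 on the plus strand, were outside the narrow clusters.

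Another 7 narrow peaks overlapped a wider peak. The longest overlap was on chromosome 1, where all 138 bases of a plus-strand peak, from 134912370 to 134912507, lay over a minus-strand peak of 501 bases. Those on chromosome 4, a minus-strand peak from 62021736 to 62021866, and chromosome 11, a plus-strand peak from 106993100 to 106993221, were also covered in full, over 131 and 122 bases. On chromosome 10, all 91 bases of a plus-strand peak from 19588767 to 19588857 were covered, and on chromosome 4 a plus-strand peak from 79649795 to 79649925 over 90 bases. In 4 of these 7 pairs the narrow peak lay wholly within the wider one.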

How the data were processed

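The data are the authors' 2 deposited peak lists of the YY1 library, 1 for each strand. Each has 3 columns (chromosome, start and end), so positions are the only deposited values. Per the submitters' processing notes, the tools were Cutadapt, Bowtie, Bowtie2 and SAMtools, of unstated version and role, and the build was mm9. How peaks were called, at which threshold, how multiply mapping reads were treated and whether the control entered is not given in the sources here. Such settings bear on narrow peaks, since width can depend on the threshold and near-identical genes share reads.

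Width was end minus start. A peak was left out if it shared a base with a window. Gaps are the bases between ends, 0 where peaks overlap. Peaks inside the windows were not counted as neighbours. Shares have exact Clopper-Pearson intervals, differences of shares Newcombe intervals, and medians intervals from binomial ranks, all at 95%. The planned counts over genes and marker lists need an mm9 annotation and were not made. Peaks named in the text are the 14 narrowest, those at the width limit, the 5 largest clusters, the 5 closest to a wider peak, the 5 most isolated, the 5 longest overlaps and the nearest to each window; others were named after their values were seen. The members and measures were chosen with earlier results of these data known. Alternatives varied the width limit (120 and 200 bases), the windows, the gaps and the peaks counted. The counting was tested on simulated data. Scripts ran in Python 3.11.15 with scipy 1.17.1, pandas 2.3.3, numpy 2.4.6 and, for figures, matplotlib 3.10.9.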

Additional observations from a re-analysis of the deposited data

Results flagged for a closer look

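Chromosome X was outside the rule for the members and was used in none of the comparisons. It had 75 narrow peaks among 300, a share of 25.0% (95% interval 20.2 to 30.3), close to that of chromosome 13. They had a median width of 108 bases and a density of 0.466 per Mb, and 42 of them were on the plus strand (56.0%, 44.1 to 67.5). With gaps of up to 10 kb, 4 of the 75 were clustered, in clusters of 2. What these peaks come from was not tested.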

How the results depend on the processing

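Recomputed under other settings, 31 of 55 values lay inside the 95% interval of the main value (for the number of peaks, within 1.5 times of it). A new width limit must move the number and share of narrow peaks. The matching shares of wider peaks at the new limits are not given here. The values below thus do not show whether contrasts with wider peaks held at those limits. With a limit of 120 bases there were 974 narrow peaks, 8.44% of all, of which 3.80% were clustered, 12.6% had a narrow nearest neighbour and 3.90% an opposite-strand peak within 2 kb; chromosome 13 stayed highest at 13.2%, and the divergent share of narrow pairs was 0% of 1 pair. With a limit of 200 bases there were 2650, 23.0% of all, of which 29.9% had a narrow nearest neighbour and 4.11% an opposite-strand peak within 2 kb, and chromosome 13 was highest at 35.9%. With no window left out, narrow peaks were 15.6% of all, 12.6% of them were clustered, 26.0% had a narrow nearest neighbour, the median distance to an opposite-strand wider peak was 166513 bases, and the chromosome 13 share was 31.9%. None of these settings left out the stretch from 21 to 24 Mb of chromosome 13, without which its share at the main limit was 18.8%. Counting same-strand peaks within 10 kb once gave a narrow share of 17.2%. The clustered share was 4.32% with gaps of up to 2 kb and 15.6% with gaps of up to 50 kb. The share with an opposite-strand peak was 1.23% for overlap alone and 10.9% within 10 kb. Among alternatives chosen after seeing the data, leaving out chromosome 13 gave a clustered share of 6.67%, and leaving out clustered peaks gave a narrow nearest neighbour for 16.4%. The plus-strand share, the median same-strand distance and the downstream share stayed within their main intervals in each alternative run for them. No paired analysis was possible because only the YY1 library had values. Without read depth, the lists cannot show that RNA was absent between peaks.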
